A study of Mus musculus with 220 samples.

Results

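Complement and coagulation genes were described in the livers of Ath-HMDP mice across 96 maternal strains. The set held 37 genes that encode soluble components, regulators and zymogens of both cascades, and a gene was measured where a probe set carried its symbol alone. Of the 37 genes, 35 were measured, out of 17097 genes on the arrays; C3 and Cfd were not analysed here. The probe set with the highest mean stood for its gene. All 220 mice were female F1 animals aged 24 weeks fed chow until 8 weeks of age and then 16 weeks of Western diet, and each liver was read on 1 array. Their mothers came from 29 classical inbred strains (65 mice) or from the recombinant inbred panels AXB/BXA (21 strains, 47 mice), CXB (8 strains, 17 mice), BXH (4 strains, 8 mice) and BXD (34 strains, 83 mice), which descend from crosses of C57BL/6J with A/J, BALB/cJ, C3H/HeJ and DBA/2J. The label of BXD24/TyJ-Cep290<rd16>/J (3 mice) names the rd16 allele of Cep290, and this strain was kept among the BXD strains. All fathers were C57BL/6J mice with the human ApoE-Leiden and CETP transgenes, so every mouse, those with a C57BL/6J mother included, carried both transgenes and a paternal C57BL/6J copy of each autosomal gene. The site and copy number of the transgenes are not known from the study's methods. Values are log2 RMA signals, on which the median probe set averaged 3.46, and a difference of 1 is a doubling of signal.

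The complement system is a chain of plasma proteins that marks and lyses foreign or damaged cells. Mannose-binding lectins and collectins bind sugars on a surface and carry the MASP proteases, which cleave C4 and C2. Convertases made from these fragments, or from factor B, lead to the cleavage of C5, and the released fragments assemble with C6, C8 and C9 into the membrane attack complex. Coagulation is a second protease chain: factor XII, prekallikrein and factor XI form the contact phase, factors VII, IX and X and prothrombin need vitamin K to be made in active form, and thrombin turns fibrinogen into fibrin. Antithrombin, heparin cofactor II and the protein C system restrain it, and plasmin dissolves the clot. Most of these proteins are made by hepatocytes.

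The 35 genes were well expressed on average. Their means over all mice lay between 7.48 for Colec10 and 12.89 for Fgb. The lowest strain mean was that of Colec10 in BXH22/KccJ, at 5.02, where the median probe set averaged 3.46. Among 6 hepatocyte markers Alb, Apoa1 and Ttr averaged 13.52, 13.28 and 13.05, near the highest value on the arrays, 13.94. The probe set of Pck1 averaged 2.92, below the median probe set. Whether it reads the Pck1 transcript was not tested, and it was kept in the mean of the 6 markers. Strain differences were called for 34 of the 35 genes by limma's F-test across the 87 strains with 2 or more mice, at an adjusted p under 0.05. The same test called 59.2% of all genes and 87.1% of the genes above the median signal. The gene without a call was Fgg, the gamma chain of fibrinogen. The share of variance between strains had a median of 0.57 over the 35 genes, against 0.25 over all genes and 0.42 over the genes above the median signal. The share reached 0.5 in 23 genes (65.7%), against 21.9% of all genes and 34.8% of the genes above the median signal. The 35 genes lay at percentile 75.6 of mean signal or higher, so neither background matches them in signal. Within a strain, mice typically differed by an SD of 0.11. In bulk liver, fewer cells of a type and less RNA per cell cannot be told apart.

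**Figure D1:**
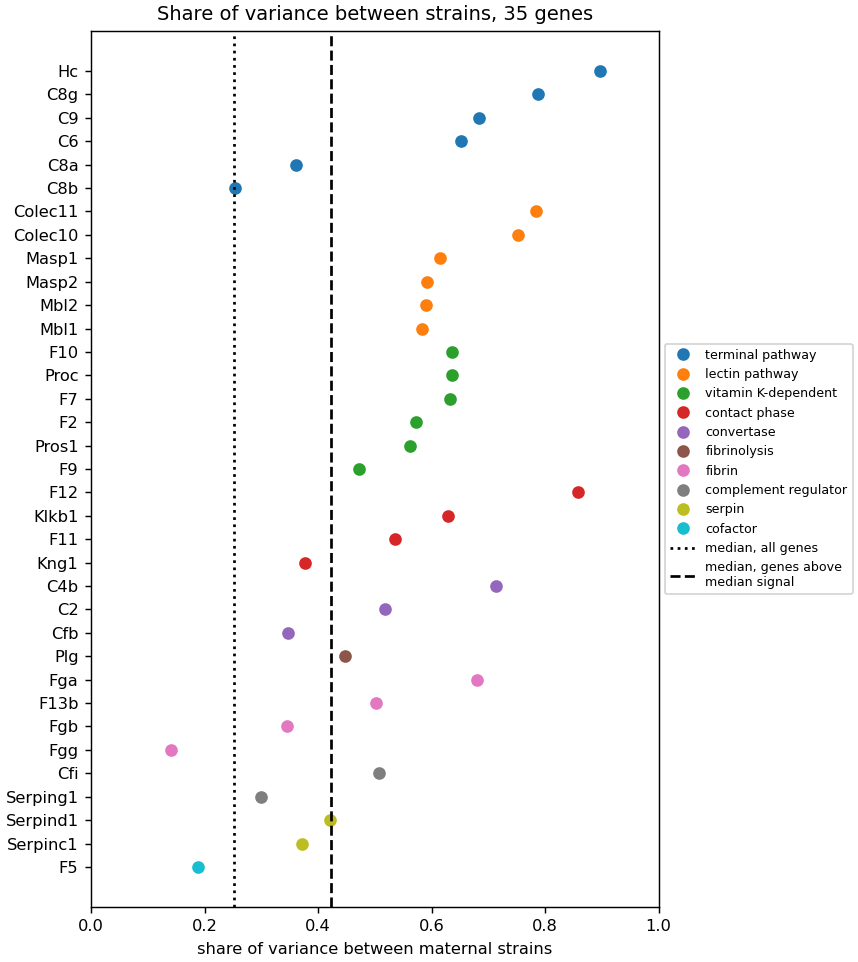
Share of variance between maternal strains (x axis, from 0 to 1) for the 35 genes, coloured by role; the lines give the median of all genes (0.25) and of the genes above the median signal (0.42). Hc and F12 stand highest, at 0.90 and 0.86, and Fgg lowest, at 0.14.

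Hc, which encodes complement C5 (Entrez gene 15139), had the highest share of variance of the 35 genes, at 0.90 (adjusted p = 4.37e-44, limma F-test). Several inbred strains are known to lack C5 protein because of a small deletion in an exon of Hc. Strains known as deficient had Hc means of 11.17 in AKR/J, 11.23 in A/J, 11.23 in NOD/ShiLtJ, 11.25 in FVB/NJ, 11.34 in SWR/J and 11.34 in DBA/2J. Strains known as sufficient had means of 11.70 in CBA/J, 11.79 in 129X1/SvJ, 11.79 in C57BL/6J, 11.80 in SJL/J, 11.83 in C3H/HeJ and 11.87 in BALB/cJ. The groups did not overlap, and Hc averaged 11.26 ± 0.07 with deficient and 11.80 ± 0.06 with sufficient mothers (SD, n = 6 strains each). The difference was -0.54 (SE 0.04), or 0.689 times the signal, in mice that all had a paternal C57BL/6J copy (limma adjusted p = 0.00107). An exact two-sided permutation test over the 924 splits of the 12 strains gave p = 0.00216, the smallest value it allows. Hc was the only probe set called in this contrast (0.00585% of all genes), while 4070 probe sets and 9.22% of genes had an unadjusted p under 0.05. So did 6 of the 35 genes, Hc included, and of these Mbl2 alone was higher with deficient mothers.

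The progenitors are among the strains of this contrast, and their single mice are given here. Hc was 11.29, 11.14 and 11.24 in the A/J mice, 11.92, 11.87 and 11.82 in BALB/cJ, 11.85 and 11.82 in C3H/HeJ, 11.35, 11.37 and 11.30 in DBA/2J, and 11.78 and 11.81 in C57BL/6J. The A/J and DBA/2J mice were low and the others high, without overlap. Over all 96 strains, 44 strain means lay from 10.97 to 11.41 and 50 from 11.64 to 11.93, with BXA2/PgnJ at 11.54 and BXD84/RwwJ at 11.58 between them. The 2 mice of BXD84/RwwJ had 11.35 and 11.81, one in each range. The low range held 15 of the 21 AXB/BXA strains, 18 of the 34 BXD strains and 11 of the 29 classical strains, and no CXB or BXH strain. Besides the strains known as deficient, its classical strains were CE/J, BTBR T<+> tf/J, NON/ShiLtJ, KK/HlJ and I/LnJ, whose status was not assigned here. The lowest mean was that of AXB5/PgnJ, with 10.97 in its 1 mouse, and the highest that of BXD50/RwwJ, with 11.88 and 11.98.

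**Figure D2:**
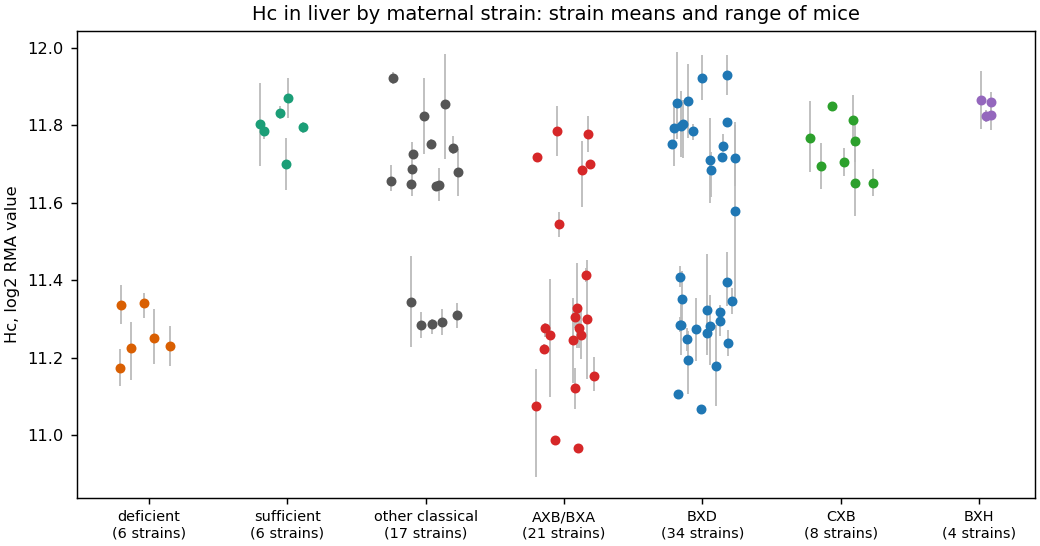
Hc signal (y axis, log2 RMA value) by maternal strain; points are strain means, grey lines span the mice of a strain, and columns group the strains known as deficient or sufficient, the other classical strains and the 4 recombinant panels. Deficient strains lie between 11.17 and 11.34 and sufficient strains between 11.70 and 11.87, and the AXB/BXA and BXD strains fall into both ranges.

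No other terminal pathway gene was called by Hc status. C8a, the alpha chain of C8, averaged 10.24 ± 0.27 with deficient and 10.80 ± 0.32 with sufficient mothers (SD, n = 6 strains each), a difference of -0.57 (SE 0.15) with an adjusted p of 0.51 in limma. C8b, its beta chain, differed by -0.36 (SE 0.11) and C6 by -0.47 (SE 0.19), with adjusted p of 0.51 and 0.53 in limma. The ranges of C8a and of C8b overlapped between the groups. C9 differed by -0.18 (SE 0.10, limma adjusted p = 0.58). C8g went the other way, by 0.09 (SE 0.13, limma adjusted p = 0.83). C8a and C8b had the widest spread between mice of a strain among terminal pathway genes other than C6, with an SD of 0.31 and 0.38, and lower shares of variance, 0.36 and 0.25. Strain means of C8b spanned 1.79 and those of C8a 1.58.

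C6 (Entrez gene 12274), which joins C5b first in the attack complex, spanned a 7.3-fold range of strain means. Its lowest mean was in AXB13/PgnJ (6.88 and 6.41) and its highest in KK/HlJ (9.47 and 9.55). Progenitor mice had 7.86, 7.30 and 7.46 for A/J, 8.50, 8.32 and 8.35 for BALB/cJ, 8.49 and 8.50 for C3H/HeJ, 6.89, 8.56 and 7.11 for DBA/2J, and 7.43 and 7.05 for C57BL/6J. BALB/cJ and C3H/HeJ lay above both C57BL/6J mice, and 1 DBA/2J mouse stood 1 log2 unit or more above its strain mates. C8g, the lipocalin-like gamma chain of C8, was 11.10, 11.08 and 11.03 in A/J, 11.33, 11.30 and 11.37 in BALB/cJ, 11.35 and 11.45 in C3H/HeJ, 11.75, 11.54 and 11.57 in DBA/2J, and 11.59 and 11.62 in C57BL/6J. The A/J mice were the lowest of these without overlap. C8g was lowest in BXD31/TyJ (10.97 and 10.75) and highest in AXB2/PgnJ (12.09, 12.13 and 12.19), which exceeded the next AXB/BXA strain mean of 11.53. C9, which polymerises into the pore, was lowest in RIIIS/J (11.37 and 11.15) and highest in BUB/BnJ (12.22, 12.30 and 12.13). C9 was 11.81, 11.26 and 11.49 in A/J, 11.89, 11.74 and 11.91 in BALB/cJ, 11.91 and 12.01 in C3H/HeJ, 11.86, 12.08 and 12.12 in DBA/2J, and 11.76 and 11.73 in C57BL/6J. None of its progenitor contrasts was called.

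All 6 lectin pathway genes had a share of variance of 0.58 or more, and the 2 collectin genes moved most. Colec10 (Entrez gene 239447), which encodes the collectin CL-L1, had the widest range of the 35 genes, 12.5-fold between BXH22/KccJ (5.15 and 4.89) and BXD38/TyJ (8.88 and 8.46). Its mice had 7.85, 7.39 and 7.33 for A/J, 5.68, 6.08 and 6.03 for BALB/cJ, 5.11 and 5.18 for C3H/HeJ, 8.09, 7.73 and 8.24 for DBA/2J, and 8.30 and 7.81 for C57BL/6J. BALB/cJ and C3H/HeJ mice were the low ones and overlapped with no other progenitor. Colec11, which encodes CL-K1, the partner of CL-L1 in a heteromeric collectin, was 7.97, 7.45 and 7.71 in A/J, 7.11, 7.32 and 7.28 in BALB/cJ, 6.92 and 7.26 in C3H/HeJ, 8.01, 7.95 and 7.99 in DBA/2J, and 8.50 and 8.02 in C57BL/6J. Colec11 was lowest in C3H/HeJ itself and highest in BXD71/RwwJ (8.51, 8.42 and 8.42). All mice of the other progenitors lay below both C57BL/6J mice for Colec11, those of DBA/2J by little.

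Masp2, the protease that cleaves C4 and C2, was 8.45, 8.54 and 8.49 in A/J, 8.15, 8.27 and 8.08 in BALB/cJ, 7.89 and 8.32 in C3H/HeJ, 8.52, 8.53 and 8.82 in DBA/2J, and on average 8.99 in the 2 C57BL/6J mice (SD 0.01). Every mouse of the other progenitors lay below both C57BL/6J mice. Masp2 was lowest in AKR/J (7.99 and 7.67) and highest in BXD50/RwwJ (8.97 and 9.13). Masp1, a related protease that activates MASP-2, had 10.13, 10.05 and 9.94 in A/J, 9.91, 9.92 and 9.95 in BALB/cJ, 9.92 and 9.95 in C3H/HeJ, 10.37, 10.27 and 10.14 in DBA/2J, and 10.09 and 10.04 in C57BL/6J. It ran from 9.28 in the 1 BXA25/PgnJ mouse to LP/J (10.26 and 10.51). The 5 probe sets of Masp1 disagreed: the brightest had a share of 0.61, the next, at a mean of 9.16, a share of 0.18, and their strain means correlated at r = -0.04 across the 96 strains.

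The mannose-binding lectins were less variable. Mbl1 was 10.32, 9.92 and 10.11 in A/J, 10.05, 9.96 and 10.11 in BALB/cJ, 10.18 and 10.13 in C3H/HeJ, 10.35, 10.47 and 10.35 in DBA/2J, and 10.43 and 10.35 in C57BL/6J. The A/J, BALB/cJ and C3H/HeJ mice lay below both C57BL/6J mice. Strain means of Mbl1 reached from AXB5/PgnJ (9.73, 1 mouse) to BXD50/RwwJ (10.54 and 10.58). Mbl2 was 11.84, 11.41 and 11.47 in A/J, 11.78, 11.61 and 11.62 in BALB/cJ, 11.39 and 11.39 in C3H/HeJ, 11.77, 11.64 and 11.82 in DBA/2J, and 11.82 and 11.81 in C57BL/6J. The C3H/HeJ mice were the lowest progenitor mice for Mbl2, and the strain extremes were CXB11/HiAJ (11.13, 1 mouse) and BXD66/RwwJ (12.06 and 11.99).

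Among the convertase genes, C4b had the highest share of variance, 0.71. C4b, which encodes the C4 cleaved by MASP-2 and C1s, was 12.04, 12.11 and 12.02 in A/J, 12.10, 12.09 and 12.03 in BALB/cJ, 11.81 and 11.83 in C3H/HeJ, 12.19, 12.04 and 12.12 in DBA/2J, and 12.05 and 12.03 in C57BL/6J. It was low in AKR/J (strain mean 11.43, 2 mice) and in BXH6/TyJ (11.49 and 11.68) and highest in BXD48/RwwJ (12.40 and 12.25). The probes may also read the closely related C4a, which cannot be separated here. C2, which supplies the protease of the classical and lectin convertase, was 9.34, 9.37 and 9.29 in A/J, 9.53, 9.36 and 9.35 in BALB/cJ, 9.30 and 9.35 in C3H/HeJ, 9.05, 9.23 and 9.26 in DBA/2J, and 9.17 and 8.97 in C57BL/6J. Its strain means ran from PL/J (8.58, 1 mouse) to BXH8/TyJ (9.40 and 9.55), and the mice of A/J, BALB/cJ and C3H/HeJ all exceeded both C57BL/6J mice. Cfb, factor B of the alternative pathway, had a share of 0.35 and strain means within a range of 0.45. Cfi, the protease that inactivates C3b and C4b, had the narrowest range of the 35 genes, 0.33, from AXB15/PgnJ (12.01, 12.04 and 12.05) to SWR/J (12.35 and 12.37). Cfi was 12.31, 12.14 and 12.26 in A/J, 12.34, 12.26 and 12.24 in BALB/cJ, 12.18 and 12.26 in C3H/HeJ, 12.18, 12.22 and 12.20 in DBA/2J, and 12.31 and 12.24 in C57BL/6J, and only the DBA/2J mice did not overlap with C57BL/6J. Serping1, the C1 inhibitor, which also restrains factor XII and kallikrein, had a share of 0.30.

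In the contact phase F12 stood out. F12 (Entrez gene 58992), the Hageman factor zymogen, was 10.69, 10.58 and 10.58 in A/J, 10.79, 10.63 and 10.58 in BALB/cJ, 10.53 and 10.48 in C3H/HeJ, 11.01, 10.97 and 11.06 in DBA/2J, and 11.30 and 11.26 in C57BL/6J. No mouse of another progenitor reached the C57BL/6J mice. F12 means spanned 2.26-fold, from BXA25/PgnJ (10.24, 1 mouse) to NOD/ShiLtJ (11.40 and 11.44). Klkb1, plasma prekallikrein, was 10.74, 10.51 and 10.69 in A/J, 10.74, 10.58 and 10.64 in BALB/cJ, 10.36 and 10.58 in C3H/HeJ, 10.83, 10.75 and 10.85 in DBA/2J, and 10.93 and 10.83 in C57BL/6J. Its extremes were AXB5/PgnJ (10.12, 1 mouse) and BXD50/RwwJ (11.07 and 11.14). F11, activated by factor XIIa and by thrombin, was 8.61, 7.53 and 7.66 in A/J, 8.36, 8.01 and 8.31 in BALB/cJ, 8.30 and 8.06 in C3H/HeJ, 8.28, 8.15 and 8.10 in DBA/2J, and 8.51 and 8.16 in C57BL/6J. The 3 A/J mice spanned more than 1 log2 unit and overlapped with every other progenitor. F11 means ran from AXB15/PgnJ (7.43, 7.22 and 7.53) to LP/J (9.10 and 9.02), a 3.17-fold range. Kng1, the kininogen that carries prekallikrein and factor XI, had a share of 0.38 and a range of 0.49, and its second probe set a share of 0.64. Signals of Kng1 and of its paralog Kng2 may be mixed.

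Of the vitamin K-dependent genes, F7 and F10 had the widest ranges of strain means, 1.16 and 0.86. F7, which starts coagulation with tissue factor, was 9.33, 9.01 and 9.17 in A/J, 9.40, 9.05 and 9.21 in BALB/cJ, 9.32 and 9.40 in C3H/HeJ, 9.11, 9.11 and 9.07 in DBA/2J, and 9.75 and 9.41 in C57BL/6J. F7 was lowest in BXD69/RwwJ (8.49, 8.89 and 8.77) and highest in BXD50/RwwJ (9.73 and 10.01). F10, the protease that converts prothrombin, was 10.99, 10.85 and 10.85 in A/J, 10.97, 10.70 and 10.84 in BALB/cJ, 10.85 and 10.92 in C3H/HeJ, 10.98, 10.91 and 10.96 in DBA/2J, and 11.15 and 11.04 in C57BL/6J. All mice of the other progenitors were below both C57BL/6J mice for F7 and F10, and none of these contrasts was called. F10 means ran from AXB15/PgnJ (10.30, 10.30 and 10.50) to CXB13/HiAJ (11.33 and 11.14).

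F2, prothrombin, was 12.29, 12.29 and 12.29 in A/J, 12.33, 12.27 and 12.26 in BALB/cJ, 12.29 and 12.28 in C3H/HeJ, 12.38, 12.24 and 12.23 in DBA/2J, and 12.43 and 12.37 in C57BL/6J. Its range was 0.40, from AXB15/PgnJ (12.05, 12.10 and 12.06) to SWR/J (12.42 and 12.51). Proc, the zymogen of the anticoagulant protein C, was 11.41, 11.37 and 11.48 in A/J, 11.41, 11.41 and 11.32 in BALB/cJ, 11.44 and 11.38 in C3H/HeJ, 11.40, 11.40 and 11.51 in DBA/2J, and 11.64 and 11.63 in C57BL/6J. The C57BL/6J mice were the highest without overlap, and the strain extremes were AXB15/PgnJ (11.17, 11.20 and 11.11) and BXD50/RwwJ (11.66 and 11.81). Pros1, the cofactor of activated protein C, was 9.08, 8.95 and 9.11 in A/J, 9.31, 9.33 and 9.27 in BALB/cJ, 9.16 and 9.25 in C3H/HeJ, 8.85, 8.99 and 9.07 in DBA/2J, and 9.04 and 8.96 in C57BL/6J. BALB/cJ was the highest progenitor for Pros1, and over all strains BXD55/RwwJ (8.48, 8.76 and 8.67) was lowest and SM/J (9.55 and 9.37) highest. F9, the X-linked gene of haemophilia B, had a share of 0.47. F5, the cofactor of factor Xa, had a share of 0.19 (adjusted p = 0.0402, limma F-test) and its other probe set a share of 0.36; the call was lost with arrays centred on their medians (0.0828) or quantile-normalized again (0.0784) and without replicate 1, 2 or 3 of every strain (0.0978 to 0.538).

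The 3 fibrinogen chains, which are assembled in equal numbers into 1 protein, differed in how far they varied with strain. Fga, the alpha chain, had a share of 0.68, Fgb, the beta chain, of 0.35, and Fgg of 0.14 (adjusted p = 0.219, limma F-test). Fga was 12.25, 12.14 and 12.14 in A/J, 12.31, 12.24 and 12.30 in BALB/cJ, 12.25 and 12.17 in C3H/HeJ, 12.38, 12.28 and 12.19 in DBA/2J, and 12.10 and 12.18 in C57BL/6J. Its extremes were BXD69/RwwJ (11.90, 11.76 and 11.91) and BXD73/RwwJ (12.46, 12.52 and 12.47). The strain means of Fgb and Fgg spanned only 0.34 and 0.38. Fgb and Fgg averaged 12.89 and 12.81 and Fga 12.15, where the highest value on the arrays was 13.94. Whether signal near the top of the scale narrowed these ranges was not tested. F13b, the carrier subunit of the factor that crosslinks fibrin, was 10.52, 10.34 and 10.39 in A/J, 10.37, 10.56 and 10.41 in BALB/cJ, 10.35 and 10.50 in C3H/HeJ, 10.67, 10.56 and 10.54 in DBA/2J, and 10.79 and 10.62 in C57BL/6J. It ran from BXA11/PgnJ (9.98 and 10.32) to SWR/J (10.87 and 10.97). Plg, which encodes plasminogen, had a share of 0.45, and the inhibitor genes Serpind1 (heparin cofactor II) and Serpinc1 (antithrombin) had shares of 0.42 and 0.37.

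Mice with A/J, BALB/cJ, C3H/HeJ and DBA/2J mothers were set against those with C57BL/6J mothers in limma contrasts over all 220 mice. The 4 contrasts share the 2 C57BL/6J mice. C57BL/6J itself stood high: it lay above the median strain for 29 of the 35 genes. Its median rank over the genes was 76 among 96 strains, where 96 is the highest. The median ranks of A/J, BALB/cJ, C3H/HeJ and DBA/2J were 37, 43, 47 and 57. Such ranks were not taken over all genes. With A/J mothers 1 of 35 genes was higher and 6 were lower, against 5.91% of all genes higher and 4.61% lower. With BALB/cJ mothers 3 were higher and 6 lower (5.52% and 4.2% of all genes), and with C3H/HeJ mothers 1 was higher and 6 lower (5.38% and 3.15%). With DBA/2J mothers none was higher and 1 was lower (1.12% and 0.983%). In either direction the contrasts called 10.5% (A/J), 9.72% (BALB/cJ), 8.53% (C3H/HeJ) and 2.1% (DBA/2J) of all genes. The 35 genes are among the more abundant ones, and of the genes above the median signal 9.19% were higher and 7.26% lower with A/J mothers, 8.45% and 6.61% with BALB/cJ, 7.95% and 4.96% with C3H/HeJ, and 1.68% and 1.57% with DBA/2J, or in either direction 16.5%, 15.1%, 12.9% and 3.25%. At an unadjusted p under 0.05, 15 of the 35 genes passed with A/J, 17 with BALB/cJ, 13 with C3H/HeJ and 8 with DBA/2J mothers, against 23.2%, 23%, 22.8% and 12.1% of all genes and 33.8%, 33.4%, 32% and 16.7% of the genes above the median signal. The median change of the 35 genes was -0.13, -0.11, -0.12 and -0.06, and that of all genes was 0.00 to 0.01. F12, Colec11 and Masp2 were lower in A/J, BALB/cJ and C3H/HeJ, Colec10 was lower and C6 higher in BALB/cJ and C3H/HeJ, and Hc was lower in A/J and DBA/2J. No member was called in opposite directions in 2 contrasts.

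**Figure D3:**
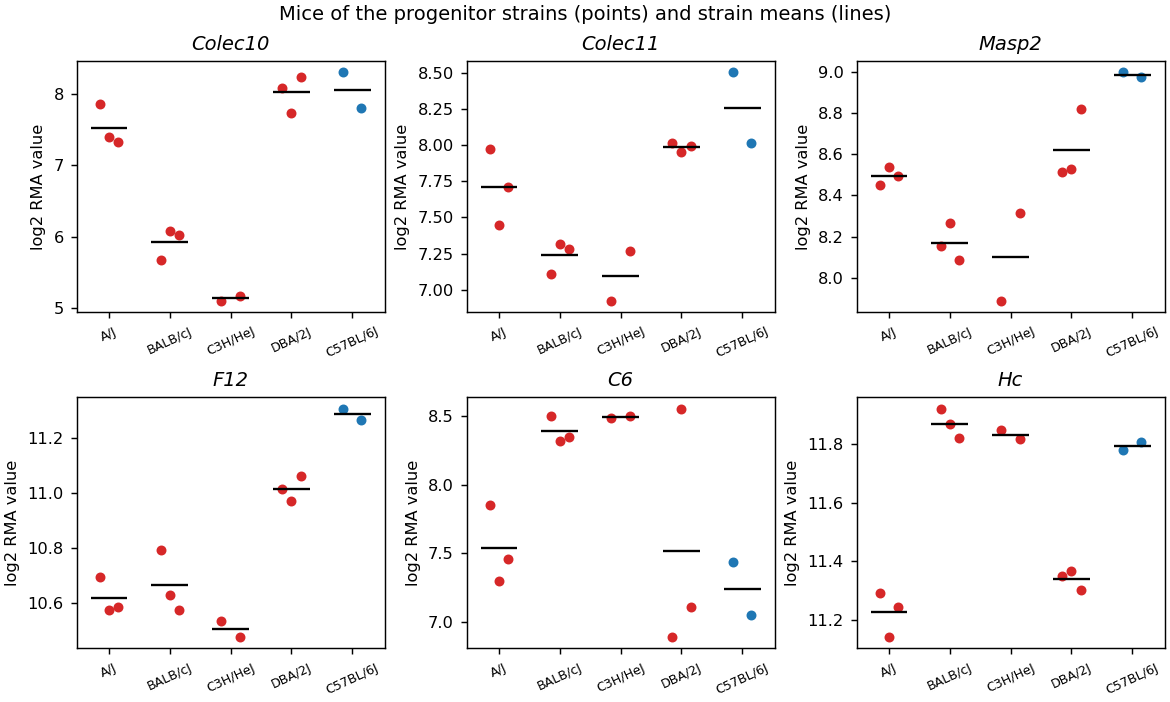
Log2 RMA values (y axis) of single mice (points) and strain means (lines) for the 6 genes called in 2 or more progenitor contrasts, with C57BL/6J at the right. Colec10 reads 5.11 to 6.08 in BALB/cJ and C3H/HeJ mice and 7.81 to 8.30 in C57BL/6J mice.

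**Figure D4:**
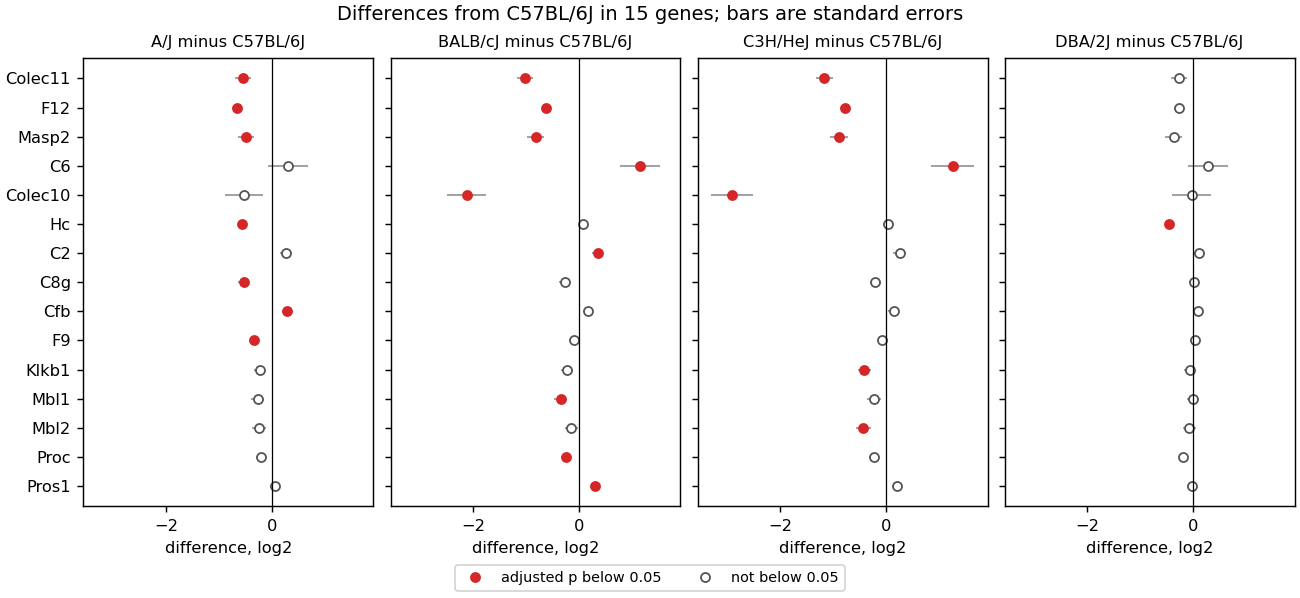
Difference from C57BL/6J (x axis, log2) with its standard error for the 15 genes called in at least 1 progenitor contrast; filled points have an adjusted p below 0.05. The widest are Colec10 in C3H/HeJ, at -2.91, and in BALB/cJ, at -2.12; DBA/2J has 1 filled point, Hc.

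F12 fell by 0.67 with A/J mothers (SE 0.09, limma adjusted p = 8.57e-09), by 0.62 with BALB/cJ mothers (SE 0.09, adjusted p = 1.19e-07) and by 0.78 with C3H/HeJ mothers (SE 0.10, adjusted p = 1.9e-09). Colec10 changed by -2.12 with BALB/cJ mothers (SE 0.37) and by -2.91 with C3H/HeJ mothers (SE 0.40), to 0.229 and 0.133 times the C57BL/6J signal (limma adjusted p = 1.3e-05 and 4.23e-08). Hc fell by 0.57 with A/J mothers (SE 0.08) and by 0.45 with DBA/2J mothers (SE 0.08). C8g fell by 0.54 with A/J mothers (SE 0.10, limma adjusted p = 4.18e-05). Colec11 fell by 1.02 and 1.17 and Masp2 by 0.82 and 0.89 with BALB/cJ and C3H/HeJ mothers. All of these calls held with any 1 mouse of either strain left out, except Masp2 in C3H/HeJ, which had an adjusted p of 0.0743 without C3H/HeJ replicate 1.

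The other progenitor calls were lost when 1 or more of the single mice were left out. With A/J mothers Colec11 fell by 0.55, but by 0.42 without A/J replicate 2 (limma adjusted p = 0.115) and by 0.31 without C57BL/6J replicate 1 (0.572). F9 fell by 0.34 with A/J mothers, and its adjusted p was 0.29 without A/J replicate 2 (change -0.21) or without C57BL/6J replicate 1, and 0.0515 without C57BL/6J replicate 2. Masp2, which fell by 0.49, and Cfb, which rose by 0.29, with A/J mothers lost the call with any 1 of the 5 mice left out (limma adjusted p = 0.0631 to 0.258 and 0.0678 to 0.223), while the changes stayed at -0.51 to -0.47 and 0.26 to 0.32. With BALB/cJ mothers C6 rose by 1.15, Mbl1 fell by 0.35 and Proc fell by 0.25, and each lost the call with any 1 of the 5 mice left out (0.0768 to 0.287, 0.0605 to 0.392 and 0.0641 to 0.289), with changes of 0.96 to 1.34, -0.39 to -0.31 and -0.27 to -0.22. C2 rose by 0.35 and Pros1 by 0.31 with BALB/cJ mothers, and both lost the call without any 1 mouse except BALB/cJ replicate 3 (0.0509 to 0.367 and 0.0584 to 0.191), with changes of 0.25 to 0.45 and 0.27 to 0.34. With C3H/HeJ mothers C6 rose by 1.25 and Mbl2 fell by 0.43, and both lost the call with any 1 of the 4 mice left out (0.154 to 0.236 and 0.127 to 0.255), with changes of 1.06 to 1.45 and -0.44 to -0.43, while Klkb1 fell by 0.41 and lost it without C3H/HeJ replicate 1 (0.36) or C57BL/6J replicate 1 (0.267). The count fell to 3 with A/J mothers without A/J replicate 2 or C57BL/6J replicate 1 and to 4 without C57BL/6J replicate 2. It fell to 4 with BALB/cJ mothers without any 1 mouse except BALB/cJ replicate 3, and with C3H/HeJ mothers to 3 without C3H/HeJ replicate 1 and to 4 without C57BL/6J replicate 1. With each array centred on its median, 1 gene was higher and 6 lower in BALB/cJ and none higher and 6 lower in C3H/HeJ; after a further quantile normalization the C3H/HeJ counts were 0 and 5.

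Markers of other liver cells moved in the same contrasts. With C3H/HeJ mothers 3 of 4 cholangiocyte markers rose, Krt7 by 1.62, Krt19 by 1.66 and Epcam by 1.90. The 6 hepatocyte markers had a median change of -0.17 with A/J, -0.09 with BALB/cJ, -0.21 with C3H/HeJ and -0.08 with DBA/2J mothers, against -0.13, -0.11, -0.12 and -0.06 for the 35 genes, and 1 of them was called, Cps1, lower with C3H/HeJ mothers. Of 8 macrophage markers 3 were higher with A/J mothers, 1 with BALB/cJ mothers, and 1 was higher and 1 lower with C3H/HeJ mothers. Of 8 stellate cell markers 1 was lower with A/J and with DBA/2J mothers, 1 was higher and 1 lower with BALB/cJ mothers, and 2 were higher and 1 lower with C3H/HeJ mothers. Lrat fell by 1.19 with BALB/cJ and with C3H/HeJ mothers, by 1.17 with A/J mothers and by 0.75 with DBA/2J mothers, while Lum rose by 1.23 with BALB/cJ and by 1.49 and Col1a1 by 1.52 with C3H/HeJ mothers. Of 7 endothelial markers 3 fell with A/J, 6 with BALB/cJ, 2 with C3H/HeJ and 1 with DBA/2J mothers. Among all strains C57BL/6J itself had the highest mean of Lrat and of Cps1. The part of these cells in the differences of Colec10, C6 and the other genes was not tested.

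Between panels, strain means were compared, since mice of a strain are not replicates of a panel. The 5 panels differed for 10 of the 35 genes (limma F-test; 8.72% of all genes were called, and 12.8% of those above the median signal): Mbl1, Hc, F11, Klkb1, F12, Mbl2, C8b, C8g, F9 and C8a. In AXB/BXA against BXD strains none of the 35 genes was higher and 5 were lower, against 4.97% of all genes higher and 4.33% lower (9.29% in either direction, and 13.3% of the genes above the median signal). Mbl1 averaged 10.08 ± 0.15 in AXB/BXA and 10.28 ± 0.16 in BXD strains (SD, n = 21 and 34 strains), a difference of -0.20 (SE 0.04). F11 averaged 8.15 ± 0.25 in AXB/BXA and 8.45 ± 0.23 in BXD strains, a difference of -0.30 (SE 0.07). Klkb1 and F12 differed by -0.21 each and Fga by -0.12. At an unadjusted p under 0.05 no gene was higher and 22 of 35 were lower, while 27.3% of all genes and 35.5% of the genes above the median signal passed in either direction. The median change of the 35 genes was -0.08 and that of all genes was 0.00.

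Within the panels, strains differed for 28 of 35 genes among BXD strains, 25 among classical strains, 19 among AXB/BXA strains, 3 among CXB strains and 2 among BXH strains (limma F-test within a panel). The same tests called 42.2%, 45.4%, 29%, 1.95% and 1.75% of all genes, in that order, and 64.4%, 69.4%, 44.5%, 3.06% and 2.65% of the genes above the median signal; the panels differ in their number of mice. In AXB/BXA strains F12 had a share of variance of 0.95, C8g of 0.90 and Hc of 0.82. F12 means of these strains ran from 10.24 to 11.23, wider than the gap between the A/J mean of 10.62 and the C57BL/6J mean of 11.28. In CXB strains Colec11, F12 and C6 were called, and in BXH strains Colec10 and Colec11. Colec10 means of the 4 BXH strains were 5.02, 6.25, 7.10 and 8.01, from the level of C3H/HeJ to that of C57BL/6J. In BXD strains the highest shares were those of Hc (0.89), Fga (0.77), Proc (0.72) and Klkb1 (0.72). Fga was not called in DBA/2J against C57BL/6J, although its BXD strain means ran from 11.86 to 12.49.

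Gene pairs that share a complex, a step or a chromosomal position were compared over the 96 strain means. Fgb was also paired with the acute phase genes Lcn2 and Saa2. There were 17 pairs in all, with 100000 permutations and adjustment over the pairs. F7 and F10, which lie next to each other in the mouse genome, had the closest relation of the 17 pairs. Their Pearson r was 0.84 and their Spearman rho 0.84 (permutation p = 1e-05 each, the smallest they can give, adjusted p = 2.83e-05). Without the 2 strains farthest from the median of F7 the r was 0.82, and it was 0.74 within classical, 0.78 within AXB/BXA and 0.92 within BXD strains. Deviations of mice from their strain means also went together, with r = 0.66 over 211 mice. C8a and C8b, also neighbours, had r = 0.63 and rho = 0.65 (permutation p = 1e-05 each, adjusted p = 2.83e-05), r = 0.63 without 2 strains, and 0.58, 0.66 and 0.51 within classical, AXB/BXA and BXD strains. Between mice of a strain their r was 0.78. C8g, the third chain of the same protein, showed no such relation to C8b (r = -0.02, rho = 0.02, permutation p = 0.838 and 0.827).

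**Figure D5:**
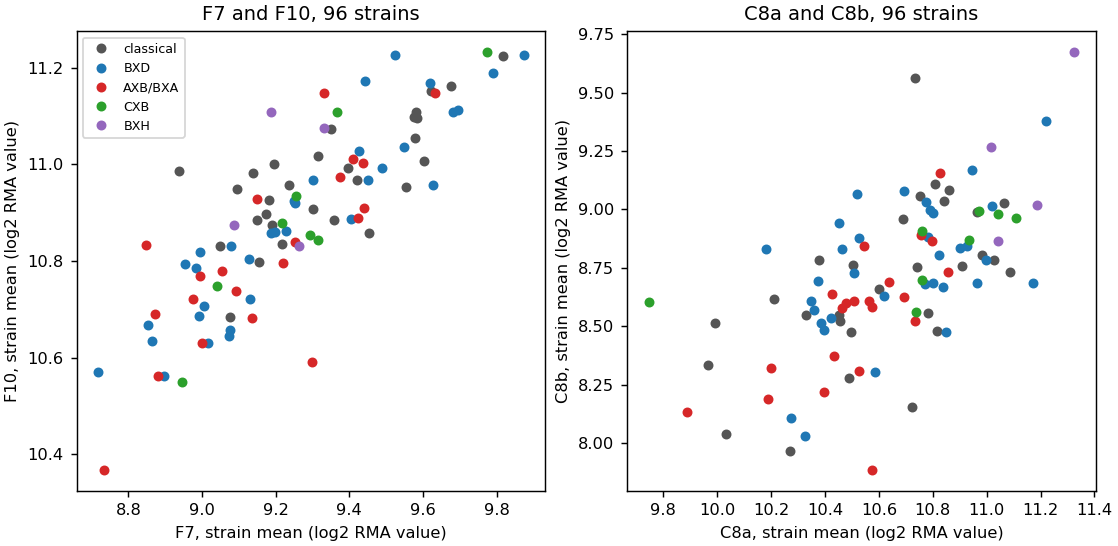
Strain means (log2 RMA values) of F10 against F7 and of C8b against C8a for the 96 maternal strains, coloured by panel. The points of F7 and F10 follow a narrow band (r = 0.84), and those of C8a and C8b a wider one (r = 0.63).

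The promoters of these neighbours are shown because each pair moved together. RefSeq sequence of build GRCm38.p6 of the 300 bases around each start is given 5′ to 3′ on the strand of the gene, with capitals at matches to AGGTCA, a core element read by many nuclear receptors, and to GTTAAT, a core element of hepatocyte nuclear factor 1, on either strand; no 2 matches overlapped.
F7, chr8:13025784-13026083, plus strand: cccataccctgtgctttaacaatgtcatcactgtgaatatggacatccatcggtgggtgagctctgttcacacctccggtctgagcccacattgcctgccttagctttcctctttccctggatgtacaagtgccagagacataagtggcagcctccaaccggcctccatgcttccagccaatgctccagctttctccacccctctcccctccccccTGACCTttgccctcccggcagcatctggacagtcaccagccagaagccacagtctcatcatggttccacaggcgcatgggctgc
F10, chr8:13037058-13037357, plus strand: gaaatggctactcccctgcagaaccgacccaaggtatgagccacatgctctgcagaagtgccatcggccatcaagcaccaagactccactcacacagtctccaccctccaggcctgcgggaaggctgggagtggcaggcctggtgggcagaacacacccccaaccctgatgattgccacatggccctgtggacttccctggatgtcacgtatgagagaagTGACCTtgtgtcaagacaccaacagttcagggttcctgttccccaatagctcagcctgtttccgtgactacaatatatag
C8a, chr4:104876349-104876648, minus strand: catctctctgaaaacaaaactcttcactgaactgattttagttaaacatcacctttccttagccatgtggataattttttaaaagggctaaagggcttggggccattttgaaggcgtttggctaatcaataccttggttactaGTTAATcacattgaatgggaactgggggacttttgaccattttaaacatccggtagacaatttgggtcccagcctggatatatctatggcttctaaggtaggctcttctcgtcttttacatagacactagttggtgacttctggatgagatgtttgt
C8b, chr4:104766067-104766366, plus strand: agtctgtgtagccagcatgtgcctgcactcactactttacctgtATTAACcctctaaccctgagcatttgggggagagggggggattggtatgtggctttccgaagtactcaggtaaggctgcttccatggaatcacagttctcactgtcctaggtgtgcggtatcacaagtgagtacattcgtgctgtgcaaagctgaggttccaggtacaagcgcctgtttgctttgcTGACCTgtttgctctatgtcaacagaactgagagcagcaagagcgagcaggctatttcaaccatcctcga
F7 and F10 each held 1 reverse AGGTCA match, ending 29 and 25 bases before the start, and C8b held one that ended 15 bases before it. GTTAAT matched once in C8a, in the forward direction, and once in C8b, in reverse. Of the 35 genes, 25 had a promoter in the table; 10 of them held AGGTCA and 7 held GTTAAT, against 16.3% and 7.1% of all 32851 promoters. A match describes the letters and is no evidence of binding.

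Other pairs were looser. Mbl1 and Mbl2, which lie on different chromosomes, had r = 0.61, Colec10 and Colec11 r = 0.56, Masp1 and Masp2 r = 0.51, F12 and Kng1 r = 0.48, Serpinc1 and Serpind1 r = 0.43, and F11 and Klkb1, which are neighbours, r = 0.40 (adjusted permutation p of 2.83e-05 to 8.5e-05 over 96 strains). The relation of F11 to Klkb1 was 0.15 within classical, 0.01 within AXB/BXA and 0.54 within BXD strains, and that of F12 to Kng1 was 0.12, 0.25 and 0.70. Fgb had r = 0.38 with Fgg and r = 0.36 with Fga, while Fga and Fgg, which are direct neighbours like F7 and F10, had r = 0.21 (adjusted permutation p = 0.0573). Between mice of a strain Fga and Fgb went together more closely, at r = 0.61. C2 and Cfb, with 1 gene between them, had r = 0.27 (adjusted permutation p = 0.00965). Proc and Pros1, zymogen and cofactor of the protein C system, ran in opposite directions (r = -0.34, rho = -0.38, adjusted permutation p = 0.00107 and 0.000213), with r = 0.05 between mice of a strain. The pairs C2 and C4b, Fgb and Lcn2, and Fgb and Saa2 did not pass the test (r = 0.12, -0.16 and 0.12). Recombinant strains of a panel share progenitors, which these permutations do not model. Over all 595 pairs of the 35 genes the median r of strain means was 0.29, and 77.5% were above 0.

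Many of the lowest and highest values fell in a few strains. AXB15/PgnJ had the lowest strain mean of 9 genes (F2, F10, F11, Proc, Serpinc1, Serpind1, Serping1, Cfb and Cfi) and lay below the median strain for 32 of 35. BXA14/PgnJ also lay below it for 32. BXD50/RwwJ had the highest mean of 8 genes and SWR/J of 6, and they lay above the median strain for 31 and 26 genes. BXD73/RwwJ, with the highest mean of 2 genes, lay above it for 31, and NZW/LacJ for 32. These counts were not made over all genes, so whether they are particular to the 35 genes was not tested. In the 3 AXB15/PgnJ mice the mean of the 6 hepatocyte markers was 10.80 to 10.90, against 10.75 to 11.33 with a median of 10.99 in all other mice, and 5 of the 6 were below the median strain. The mean of their 4 cholangiocyte markers was 5.43 to 6.38, against 3.22 to 7.09 with a median of 4.86 in the others. The 2 BXD50/RwwJ mice had 11.27 and 11.30 for hepatocyte markers, 3.45 and 3.75 for cholangiocyte markers and 7.15 and 7.60 for the 8 stellate cell markers, whose median was 8.35 in the other mice. The 2 SWR/J mice had 11.10 and 11.24 for hepatocyte markers, 3.88 and 3.94 for cholangiocyte markers, 7.35 and 7.62 for stellate cell markers, and 7.50 and 7.55 for the 7 endothelial markers, above the highest other mouse at 7.43. The 3 BXA14/PgnJ mice had 10.79 to 10.98 for hepatocyte markers and 6.49 to 7.09 for cholangiocyte markers, above the highest other mouse at 6.38. Across the 96 strain means 29 of the 35 genes had a negative r with the mean of the cholangiocyte markers (median r = -0.43) and 29 with that of the stellate cell markers (median r = -0.43), while 28 had a positive r with the mean of the hepatocyte markers (median r = 0.30). Of the hepatocyte markers, strain means of Tat ran from 9.91 to 11.82 and those of Pck1, whose probe set was faint, from 2.62 to 3.72. Those of Apoa1, Cps1 and Ttr ran from 13.07 to 13.49, 12.28 to 12.71 and 12.85 to 13.20, and Alb had a share of 0. The hepatocyte mean therefore need not follow the number of hepatocytes. Colec10 was lowest with r = -0.86 against the cholangiocyte markers, and C6 stood at the other end with r = 0.66. The stellate cell mean joins markers that moved in opposite directions with C3H/HeJ mothers, Lrat lower and Lum and Col1a1 higher. It therefore need not follow the number of stellate cells. The marker correlations were not run over all genes, so whether the counts are particular to the 35 genes was not tested. These correlations share the same arrays, and the part of cell makeup in the strain differences was not tested.

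Other genes of both cascades and the marker lists were read against the same test's 59.2% of all genes and 87.1% of the genes above the median signal. Of 19 further complement genes 16 were called across strains, with a median share of 0.56, the highest being Cd59a (0.72), an inhibitor of the attack complex, C3ar1 (0.71), the receptor of C3a, C1qb (0.70), a chain of C1q, and Fcna (0.67), a ficolin. Of 17 further coagulation and fibrinolysis genes 15 were called, with a median share of 0.43. The plasminogen activators Plat (0.74) and Plau (0.70) led, then Gas6 (0.56) and the urokinase receptor Plaur (0.56). Vkorc1, which recycles vitamin K, was called (share 0.54) and Vkorc1l1 was not. All 15 acute phase genes were called, Apcs (0.78) and Lcn2 (0.67) ahead of the others. So were 9 of 10 liver transcription factors and 5 of 6 hepatocyte, 8 of 8 macrophage and 8 of 8 stellate cell markers. Also called were 7 of 7 endothelial, 4 of 5 neutrophil, 4 of 4 cholangiocyte and 1 of 4 adipocyte markers. In the progenitor contrasts the 19 complement genes had 1 higher and 1 lower with A/J, none higher and 2 lower with BALB/cJ, 1 higher and 2 lower with C3H/HeJ and none called with DBA/2J mothers, and the 17 coagulation genes had 1 higher and 1 lower with A/J, 2 higher with BALB/cJ, 2 higher with C3H/HeJ and none called with DBA/2J mothers. Cfhr2, of the factor H-related family, fell by 0.87 with A/J, by 0.58 with BALB/cJ and by 0.65 with C3H/HeJ mothers, and Serpina10, the protein Z-dependent inhibitor, rose by 0.36 with BALB/cJ and by 0.47 with C3H/HeJ mothers. In the other direction from Cfhr2, C3ar1 rose by 0.89 with A/J mothers, and in the other direction from Serpina10, F8, the cofactor of factor IXa, fell by 0.81 with A/J mothers. Lcn2 rose by 1.47, 1.28 and 1.56 and Apcs by 1.02, 0.99 and 1.17 with A/J, BALB/cJ and C3H/HeJ mothers.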

How the data were processed

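The log2 signals that the authors deposited were made by robust multi-array averaging (RMA) from Affymetrix HT MG-430 PM arrays, 1 per mouse, of RNA from the left liver lobe; GCOS and RMA are named in the submitters' processing notes, without versions or any batch correction. RMA corrects background, quantile-normalizes arrays and summarises probes, so a global shift of one liver would be removed. The deposited log2 values ran from 1.90 to 13.94 with array medians of 3.43 to 3.57. Of 45141 probe sets 104 were controls and 45037 were analysed; 28898 carried 1 gene symbol, and platform symbols were used. No filter on low values was set. Arrays have no read depth, so precision is limited by how many there were. Maternal variants under the probes were not examined.

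Groups were the maternal strains in the labels, and panels followed strain names. Nothing in the labels gives litters or collection days, so effects of these cannot be told apart from differences between strains or between mice. P-values of the F-tests across strains and of the progenitor contrasts rest on the spread between mice of a strain. Those of the panel tests, the Hc contrast and the gene pairs rest on the spread between strain means. limma 3.58.1 in R 4.3.3 gave the moderated F-tests (87 strains, 211 mice) and contrasts (220 mice, 124 residual degrees of freedom); p-values were adjusted by Benjamini-Hochberg over all probe sets and called below 0.05. The share of variance came from a one-way random-effects analysis. The permutation tests ran in Python with numpy and scipy. The F-test and contrast scripts were tested on simulated data. Known Hc status of 12 strains came from general knowledge.

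The members, lists, pairs, tests and alternatives were chosen with earlier results of these data known. Members could all be named; single mice were given for progenitors and extreme strains of members with a share of 0.5 or more or called in 2 or more contrasts, and up to 4 genes of a list by share. Genes of a list named for a progenitor contrast were chosen after their values were seen. The alternatives were other scalings and filters, all probe sets of a gene, left-out mice or strains, and other sets of strains.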

Additional observations from a re-analysis of the deposited data

How the results depend on the processing

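No paired analysis was possible because replicate numbers were given in accession order and only name a mouse. The strain effect was called for 24 to 30 of the 35 genes when replicate 1, 2 or 3 of every strain was left out, and Fgg stayed without a call throughout. The A/J, BALB/cJ and C3H/HeJ contrasts with C57BL/6J called 3 to 7, 4 to 6 and 3 to 5 genes when single mice were left out and 4 each when only mice of these strains were fitted, against 7, 9 and 7; a left-out mouse leaves some strains with 1 mouse, which is assumed to vary like the others. Hc stayed called in all alternatives of the Hc contrast, at -0.56 to -0.52 when single strains were left out. In a fit of all mice with 1 mean per strain 9 of the 35 genes and 5750 probe sets were called for Hc status, because that fit takes its spread from mice of a strain and not from strains. AXB/BXA against BXD called 8 genes with arrays centred on their medians, 9 with probe sets above the median signal and 9 with the mean of all probe sets of a gene, against 5, all lower. Fga lost this call with the AXB19 substrains averaged (adjusted p = 0.0695) and with strains of 2 or more mice (0.0619). The panel effect fell to 5 genes with strains of 2 or more mice. Without replicates 1, 2 or 3, segregation was called for 7 to 22 genes among classical strains, 15 to 23 among BXD, 6 to 11 among AXB/BXA and 1 among CXB strains, with fewer mice and strains in each fit. BXH strains gave 1 gene with probe sets above the median signal. Fga and Fgg passed the test with centred arrays (r = 0.25, adjusted p = 0.02). Without AXB15/PgnJ, an alternative chosen after seeing the data, F5 lost its call (adjusted p = 0.0712), as it did with centred or again quantile-normalized arrays and without replicate 1, 2 or 3, and the panel effect was called for 8 genes. No called gene reversed its direction in the progenitor or panel contrasts; some genes without a call did under an alternative, and in AXB/BXA against BXD these were F5, Cfb and Serpinc1 (0.013, -0.0014 and -0.0033 in the main comparison). Small differences between 2 or 3 mice a strain may go undetected.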
